A study of Mus musculus with 2 samples.

Results

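The genes described here encode the oxidative phosphorylation machinery of the mouse hippocampus, read as single cDNA molecules by long-read RNA sequencing. They were chosen by symbol: genes starting with Nduf (complex I and its assembly factors), Sdha to Sdhd (complex II), Uqcr and Cyc1 (complex III), Cox4 to Cox8 (complex IV), Atp5 (ATP synthase, also called complex V) and mt- (every gene of the mitochondrial genome). GENCODE M21, the gene annotation used with the mm10 genome, held 145 such genes, 108 nuclear and 37 mitochondrial. Reads were assigned to 113 of them, 96 nuclear and 17 mitochondrial, out of 19042 annotated genes with a read; 105 had reads in both libraries. The 32 without a read were 18 mitochondrial tRNA genes, 11 processed pseudogenes, Cox8c, mt-Atp8 and mt-Nd4l.

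The study holds 1 group of 2 libraries and no treatment. Both were made from total RNA of the hippocampus (given as a hippocampal layer) of female B6CASTF1/J mice aged 14 days, the F1 offspring of C57BL/6J and CAST/EiJ. Each library pooled 3 animals and started from 2 µg of RNA, with Lexogen SIRV and Ambion mix 1 spike-ins added. The labels number the animals 4, 5 and 6 for replicate 1 and 10, 11 and 12 for replicate 2, although 1 further label line repeats the numbers of replicate 1 for both, and 1 donor record is given for both. The spread between these 2 pools is therefore the only error available, and it may be in part technical.

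Respiratory complexes I to IV pass electrons from NADH and succinate to oxygen and, except for complex II, pump protons across the inner mitochondrial membrane. ATP synthase uses the resulting gradient to make ATP, on which synaptic transmission in the brain depends. Most subunits are encoded in the nucleus, translated in the cytosol and imported, while a small set of hydrophobic core subunits is encoded by mitochondrial DNA, transcribed inside the organelle as long polycistronic RNAs and cut out largely at tRNA sequences. Several nuclear subunits of complex IV come in tissue forms encoded by separate genes.

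The libraries held 1168366 and 888704 assigned reads, so that 1 read was worth 0.856 CPM (reads per 1000000 assigned reads) in replicate 1 and 1.13 CPM in replicate 2, and 0 reads allowed a level of up to 2.57 and 3.38 CPM. Each read is 1 cDNA whatever its length, so that levels of different genes were compared in CPM without division by length. Neuronal (Snap25, Syp, Rbfox3, Nefl) and hippocampal field markers were present in both libraries, at summed levels of 4238 and 5042 CPM and of 531 and 666 CPM. The libraries differed in other tissue: the 5 choroid plexus markers summed to 4651 CPM in replicate 1 and 6.75 CPM in replicate 2, nearly all of it from Ttr with 5325 and 5 reads. Of 5 blood genes, 4 also passed the test given below as higher in replicate 1. The 4 neuronal markers, the 4 astrocyte markers (summed levels 2747 and 4359 CPM) and 2 of 3 oligodendrocyte markers were higher in replicate 2. So were 3 of 5 hippocampal field markers, among them Prox1 with 8 and 34 reads. With the length trend described below removed, 5 choroid plexus, 0 blood, 1 neuronal, 3 astrocyte and 2 oligodendrocyte markers still passed. The field markers Prox1 and C1ql2 also still passed.

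Respiratory chain genes took 3.29% of all reads in replicate 1, on 38457 reads, and 2.23% in replicate 2, on 19802. Their share was thus lower in replicate 2, and this library difference runs through most levels given below. Complex IV was represented by 8122 ± 2816 CPM (mean ± SD, n = 2 libraries, as throughout), complex I by 7376 ± 2239 CPM and ATP synthase by 7233 ± 1542 CPM. Complex III summed to 3341 ± 722 CPM and complex II, the smallest with 4 subunits, to 1033 ± 66.0 CPM. The first 3 sums did not differ beyond the spread between libraries, and their order changed: complex IV held 30.7% and 27.5% of the genes' reads, complex I 27.2% and 26.0%, and ATP synthase 25.3% and 27.6%. In bulk tissue, fewer cells of a type and less RNA per cell cannot be told apart.

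**Figure D1:**
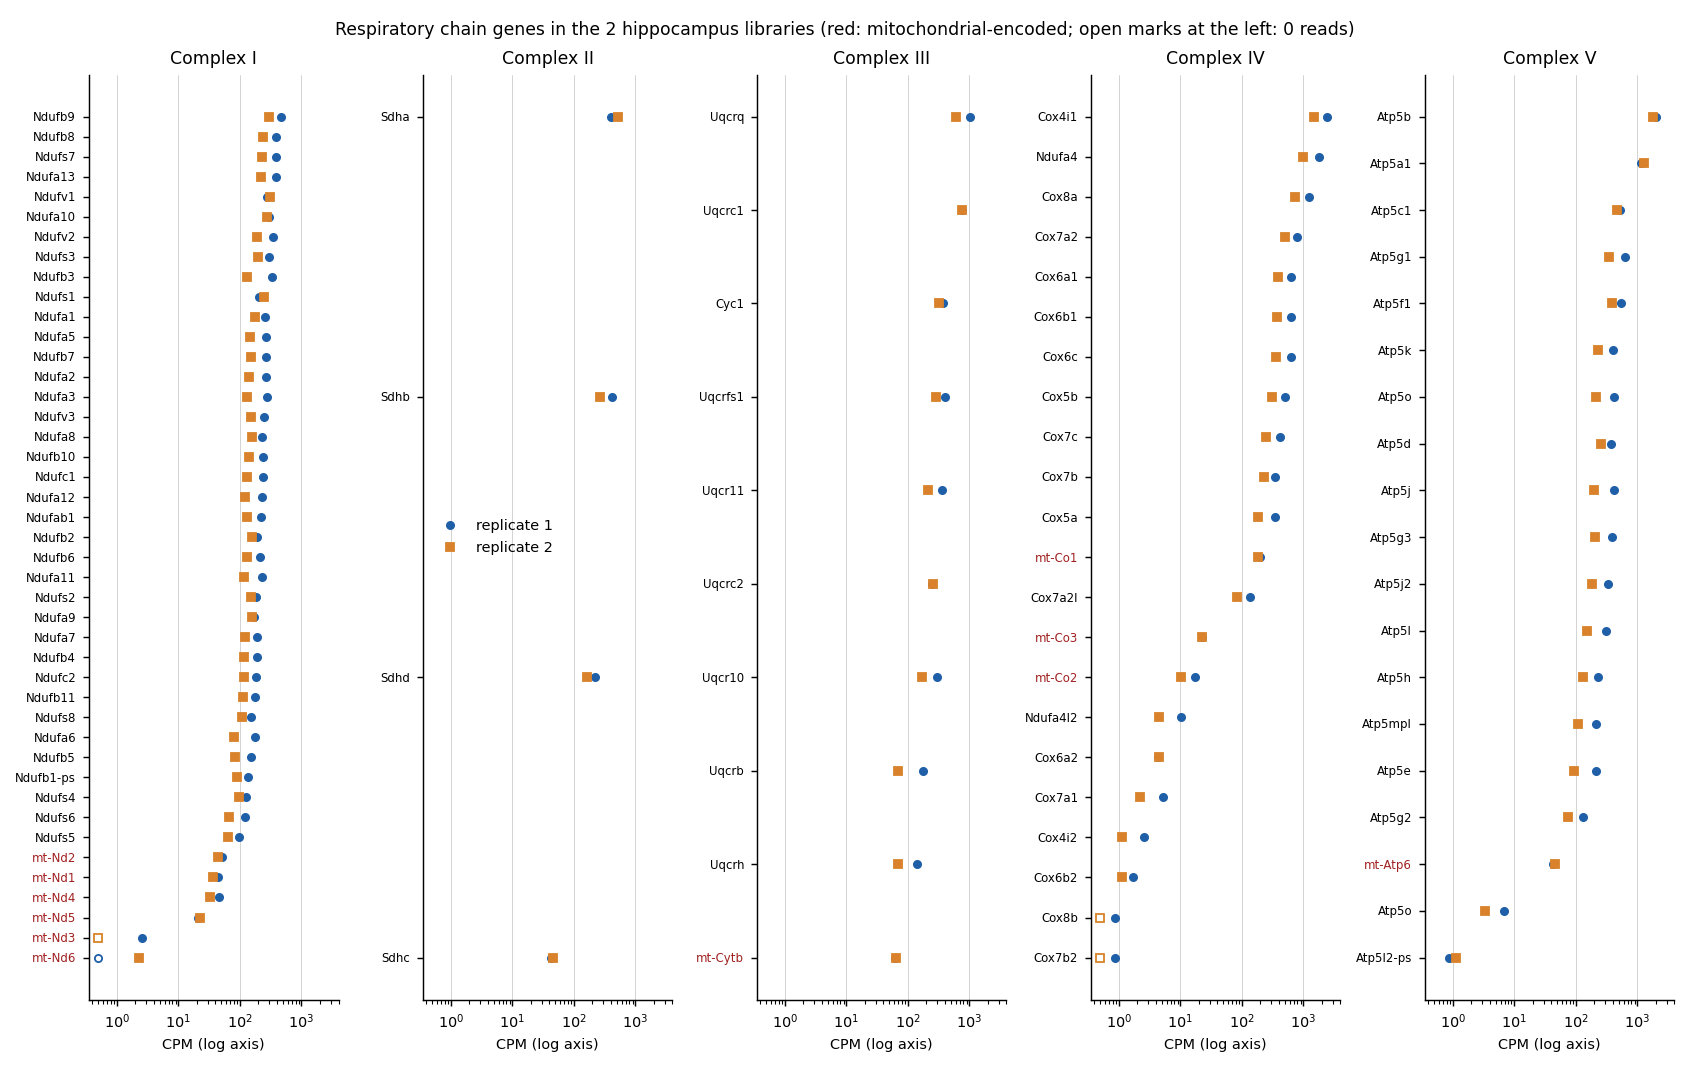
Level of each subunit gene of complexes I to V in CPM (log axis) in replicate 1 (circles) and replicate 2 (squares), ordered within a complex by mean level; red names are mitochondrial-encoded and open marks at the left stand for 0 reads. Nuclear subunits of complex I lie within a narrow band, from 79.9 to 381 CPM on average, while complex IV runs from Cox4i1 at 1942 CPM to Cox8b and Cox7b2 at 0.43 CPM.

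Complex I, the NADH dehydrogenase, had 37 nuclear subunit genes at even levels with a median of 186 CPM. Ndufb9, an accessory subunit of the membrane arm, had the highest mean, with 471 CPM in replicate 1 and 291 CPM in replicate 2, and Ndufs5 the lowest, with 96.7 and 63.0 CPM. The core subunits that carry electrons lay inside this band. Ndufv1, which binds NADH and the flavin, stood at 279 and 304 CPM, its partner Ndufv2 at 342 and 189 CPM, and the iron-sulphur protein Ndufs1 at 203 and 242 CPM. These core genes differed in which library was higher: Ndufv2 was higher in replicate 1, whereas neither Ndufv1 nor Ndufs1 passed the test given below. Ndufb1-ps, which the annotation classes as a bidirectional promoter lncRNA rather than a coding gene, was read at 134 and 91.1 CPM, like the coding subunits around it. The 8 Ndufaf assembly factors, which help to build complex I and are absent from the finished enzyme, summed to only 353 ± 106 CPM, led by Ndufaf7 at 130.1 and 94.5 CPM.

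Complex II, succinate dehydrogenase, is wholly nuclear-encoded and also a step of the citric acid cycle. Its flavoprotein gene Sdha had 465 and 458 reads, or 398 and 515 CPM. The iron-sulphur subunit Sdhb had 489 and 232 reads, or 419 and 261 CPM. The order of these catalytic subunits was therefore opposite in the libraries. The membrane anchors were lower, Sdhd at 221 and 165 CPM and Sdhc at 42.8 and 45.0 CPM, on 50 and 40 reads.

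In complex III, the cytochrome bc1 complex, Uqcrq had the highest mean level, at 1029.6 and 609.9 CPM, and Uqcrc1, a core subunit, was above it in replicate 2, at 768 and 769.7 CPM. Cyc1, the cytochrome c1 haem protein, stood at 377 and 323 CPM and Uqcrfs1, the Rieske iron-sulphur protein, at 405 and 286 CPM. Uqcrh, the hinge protein, was the lowest nuclear member at 140 and 68.6 CPM. Cycs, the cytochrome c that carries electrons from complex III to complex IV, had 469 and 221 reads, and its testis form Cyct had none.

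Among ATP synthase genes the catalytic head led: Atp5b (beta) had 2351 and 1573 reads, or 2012 and 1770.0 CPM, and Atp5a1 (alpha) 1330 and 1134 reads, or 1138 and 1276 CPM. The central stalk gene Atp5c1 (gamma) stood at 531 and 464 CPM, Atp5d (delta) at 373 and 253 CPM and Atp5e (epsilon) at 214 and 94.5 CPM. These stalk subunits thus fell well below the head, in which the alpha and beta chains are also present in several copies each. Atp5f1, the b subunit of the peripheral stalk, stood at 543 and 385 CPM, and Atp5o, which joins that stalk to the head, at 416 and 210 CPM. A second annotated gene identifier that also carries the name Atp5o had 8 and 3 reads.

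The membrane ring of ATP synthase is made of subunit c, which 3 genes encode with the same mature protein behind different import sequences. Atp5g1 gave 744 and 308 reads, or 55.5% and 55.0% of the family, Atp5g3 444 and 185 reads (33.1% and 33.0%) and Atp5g2 152 and 67 reads (11.3% and 12.0%). The shares were nearly equal in the libraries although all 3 levels were lower in replicate 2. The last 60 coding bases before the stop codon are shown because they let reads that cover them be told apart. A 1-exon model of Atp5g2 (81 and 33 reads, chr15:102662864-102663014) lies outside this stretch. The sequences come from the mm10 GENCODE M21 transcripts on the minus strand, with capitals at the 18 positions that differ among the 3 genes:
Atp5g1 (chr11:96073107-96073166): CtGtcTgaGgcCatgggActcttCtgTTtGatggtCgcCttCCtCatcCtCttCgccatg
Atp5g2 (chr15:102663017-102663076): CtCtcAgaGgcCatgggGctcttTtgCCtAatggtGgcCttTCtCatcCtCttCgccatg
Atp5g3 (chr2:73908596-73908655): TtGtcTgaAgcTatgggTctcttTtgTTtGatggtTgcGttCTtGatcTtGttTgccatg
Over the last 225 coding bases the genes differed at 57 positions, 52 of them at the third base of a codon. Identity over this stretch was 84.9% between Atp5g1 and Atp5g2, 80% between Atp5g1 and Atp5g3 and 78.7% between Atp5g2 and Atp5g3. Gm10175 and Gm10231, processed pseudogenes identical to Atp5g2 over their whole 441 bases, received 86 and 45 and 108 and 27 reads, which the sequence alone cannot assign. With these copies and Gm10039, a copy of Atp5g1 (30 and 11 reads), added, the mean share of Atp5g2 moved from 11.7% to 21.9% of the family. It was 6.58% on annotated transcripts and 6.01% without 1-exon models.

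Complex IV, cytochrome c oxidase, showed the tissue forms clearly. Cox4i1, the general form of subunit 4, had 2795 and 1326 reads, against 3 and 1 for Cox4i2, known from lung. Cox6a1 had 737 and 343 reads against 5 and 4 for Cox6a2, the heart and muscle form. Cox6b1 had 727 and 328 reads against 2 and 1 for the testis form Cox6b2. In each pair the general form thus held at least 98.8% of the family's reads in both libraries.

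The same held for the remaining families except Cox7a. Cox8a had 1437 and 649 reads, the muscle form Cox8b 1 and 0, and the testis form Cox8c none, which allows it up to 0.209% and 0.462% of the Cox8 reads. Cox7b had 410 and 205 reads and the testis form Cox7b2 1 and 0. Ndufa4, named for complex I and now placed in complex IV, had 2111 and 886 reads, against 12 and 4 for Ndufa4l2. Cox7a was shared by Cox7a2, the liver form, with 912 and 453 reads (84.7% and 85.6%) and Cox7a2l, a factor that joins complexes III and IV into supercomplexes, with 159 and 74 reads (14.8% and 14.0%); the muscle form Cox7a1 had 6 and 2. Striated muscle markers summed to 24.8 and 23.6 CPM, with Ckm and Myh2 at 0 reads, and the 4 testis markers were at 0 in both.

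**Figure D2:**
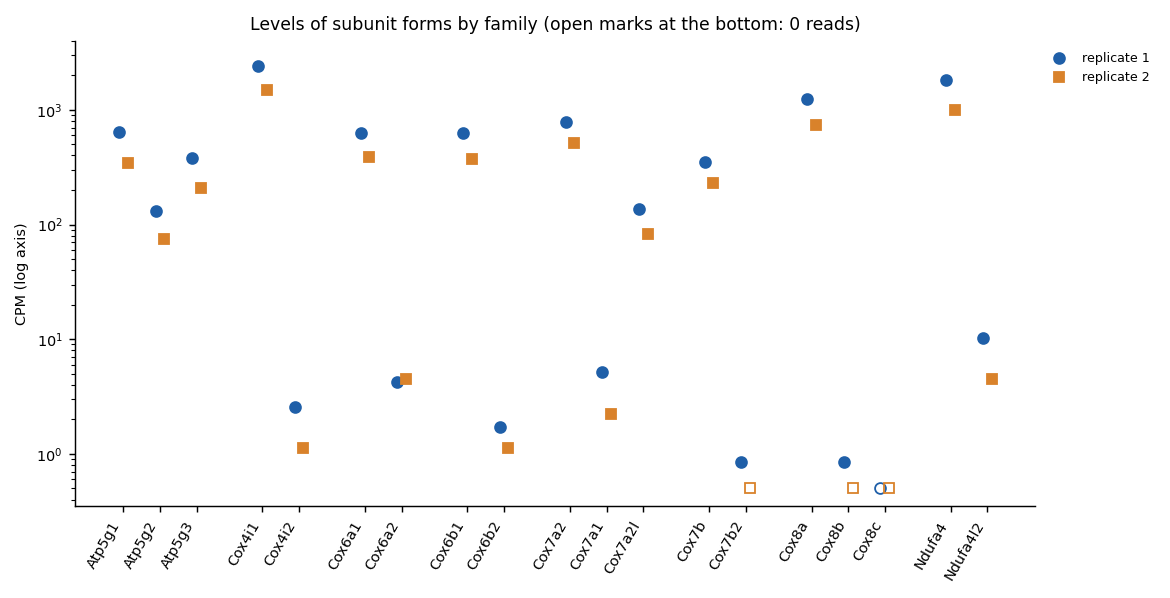
Level in CPM (log axis) of the genes of each subunit family in replicate 1 (circles) and replicate 2 (squares); open marks at the bottom stand for 0 reads. The general forms lie at 230.7 CPM or more, the muscle, lung and testis forms at 5.14 CPM or less, Ndufa4l2 at 10.3 and 4.50 CPM, and the Atp5g and Cox7a families hold more than 1 well-read gene.

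Genes of the mitochondrial genome supplied few of the reads. They had 740 of the 38457 respiratory chain reads in replicate 1, a share of 1.92% (95% Clopper-Pearson interval 1.79 to 2.07%, counting error only), and 496 of 19802 in replicate 2, or 2.50% (2.29 to 2.73%). In CPM they differed less between libraries than the nuclear genes did, at 633 and 558 CPM against 32282 and 21724 CPM. The median gene stood at 22.4 CPM over the 17 mitochondrial and 196 CPM over the 96 nuclear genes. The 17 include ribosomal RNA genes and the barely read tRNA genes mt-Tm, mt-Tq, mt-Th and mt-Tp. Their median is therefore not that of the protein-coding mitochondrial genes, which was not computed. All reads of mitochondrial genes, 740 and 496, lay on annotated transcripts. Filters on reads were not stated. The shares and medians thus describe the deposited counts and do not measure how much mitochondrial RNA the tissue held. Within complexes, the mitochondrial share was 1.83% and 2.37% in complex I, 1.58% and 2.23% in complex III, 2.34% and 3.56% in complex IV, and 0.504% and 0.733% in ATP synthase.

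mt-Co1, the catalytic core of cytochrome c oxidase, led with 231 and 165 reads, or 198 and 186 CPM. mt-Cytb, the haem-bearing core of complex III, followed among the coding genes with 71 and 56 reads. The complex I genes mt-Nd2, mt-Nd4, mt-Nd1 and mt-Nd5 had 59 and 39, 54 and 29, 52 and 32, and 24 and 20 reads. Reads of the complex I genes spanned a wide range, down to mt-Nd3 with 3 and 0 and mt-Nd6 with 0 and 2 reads. mt-Nd6 is the only protein gene encoded on the opposite strand to the others. mt-Co2 had 20 and 9, mt-Co3 26 and 20, and mt-Atp6 49 and 40 reads. The ribosomal RNA genes mt-Rnr2 and mt-Rnr1 had 92 and 54 and 55 and 29 reads, and mt-Tm had 2 and 0, mt-Tq 0 and 1, and mt-Th and mt-Tp 1 and 0 reads each. Another 32 and 24 reads lay on the mitochondrial genome outside annotated genes, 17 and 10 of them in the control region (chrM:15422-16188) on the strand of mt-Nd6.

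Nuclear copies of mitochondrial DNA took some of these reads by name. The 8 copies at least 97% identical to a mitochondrial gene over 80% or more of their length had 132 and 82 reads. Gm10925 on chromosome 1, which differs from mt-Atp6 at 0 of 678 bases, had 51 and 32 reads, close to the 49 and 40 of mt-Atp6. Gm28437 had 40 and 23 reads and its parent mt-Co3 26 and 20. Gm29216 had 24 and 10 reads and differs from mt-Co1 at 6 of 492 bases, all near its start, which is shown with capitals at the differing bases (mm10, GENCODE M21 transcripts):
mt-Co1 (chrM:6381-6420, plus strand): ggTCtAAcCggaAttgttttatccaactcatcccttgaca
Gm29216 (chr1:24616158-24616197, minus strand): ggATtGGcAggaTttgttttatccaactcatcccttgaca
The other 479 bases are identical, so that a read short of the start cannot be assigned by sequence. Adding the reads of 6 copies on chromosome 1 (Gm10222, a copy of mt-Nd4l with 1 and 1 reads, was not among them) raised the mitochondrial share from 1.92% to 2.25% and from 2.50% to 2.88%.

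**Figure D3:**
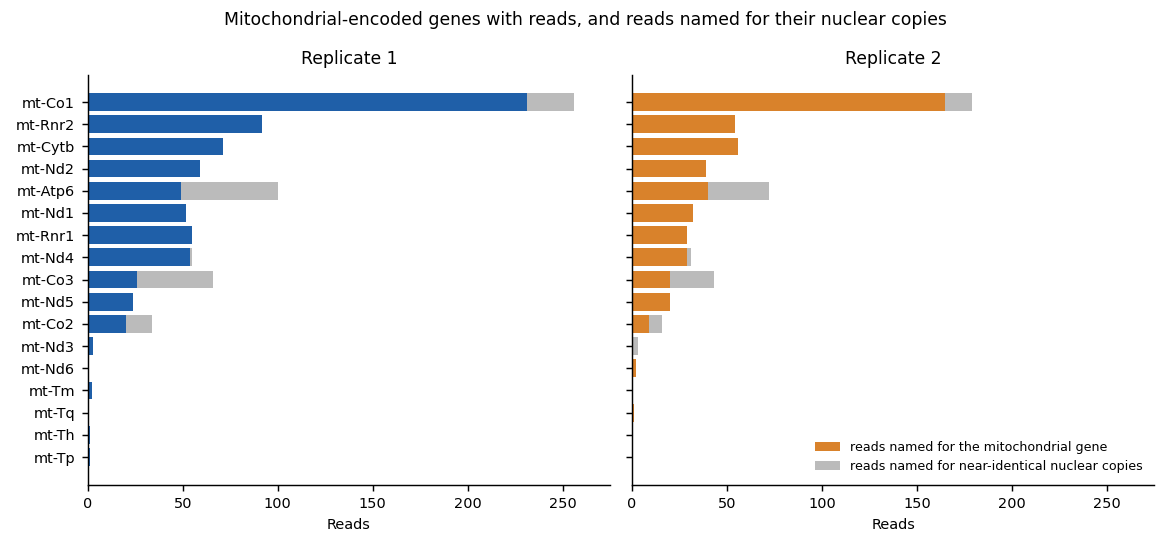
Reads of each mitochondrial gene in the libraries (coloured bars) and, stacked in grey, reads named for its near-identical nuclear copies. mt-Co1 is highest in both, with 231 and 165 reads, and, among the genes plotted, which are those with reads of their own, the grey part exceeds the coloured part for mt-Co3 in both libraries, for mt-Atp6 in replicate 1 and for mt-Nd3 in replicate 2.

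Nuclear genes had such copies too. The 11 near-identical processed pseudogenes of nuclear subunits had 676 and 235 reads. The best read was Gm12338, identical to Cox7c over its 192 bases, with 221 and 93 reads against 493 and 220 for Cox7c. BC002163, 99.4% identical to Ndufs5, had 89 and 37 reads against 113 and 56. Gm6969, a copy of Cox7a2l, had 63 and 0 reads. Levels of Cox7c, Ndufs5, Atp5g2, Atp5l and Cox7a2l are uncertain to that extent.

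The 2 libraries were compared gene by gene with a two-sided exact binomial test, which asks whether a gene's reads split as the library totals do, adjusted by Benjamini-Hochberg over the 11681 annotated genes with at least 10 reads. The test takes reads as its unit and compares 2 libraries, not conditions. Of the 100 respiratory chain genes tested, 65 passed an adjusted p of 0.05, 63 higher in replicate 1 and 2 higher in replicate 2. Over all genes tested 10.8% passed, 5.03% higher in replicate 1 and 5.81% higher in replicate 2. The median log2 ratio of replicate 2 over replicate 1 (CPM + 1) was -0.70 over these genes and 0.11 over all genes tested, and 88 of the 100 lay below 0. The balance over all genes depends on the scaling. With TMM totals, which shifted log2 ratios by -0.13, 70 of the 100 passed, all higher in replicate 1, against 9.74% of all genes (6.78% higher in replicate 1 and 2.96% in replicate 2). With DESeq2 size factors, which shifted them by -0.12, 70 passed, again all higher in replicate 1, against 9.8% (6.73% and 3.07%).

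The genes that passed came from every complex, and all were nuclear. In complex I they were 28 of 41 tested, all higher in replicate 1 with log2 ratios from -1.31 (Ndufb3) to -0.54 (Ndufa8): the core and dehydrogenase-module subunits Ndufs3, Ndufs6, Ndufs7, Ndufv2 and Ndufv3, and the accessory subunits Ndufa1, Ndufa2, Ndufa3, Ndufa5, Ndufa6, Ndufa7, Ndufa8, Ndufa11, Ndufa12, Ndufa13, Ndufab1, Ndufb1-ps, Ndufb3, Ndufb4, Ndufb5, Ndufb6, Ndufb7, Ndufb8, Ndufb9, Ndufb10, Ndufb11, Ndufc1 and Ndufc2. In complex II, 2 of 4 passed, Sdhb higher in replicate 1 and Sdha in replicate 2. In complex III, 6 of 10 passed, all higher in replicate 1 (Uqcrq, Uqcrb, Uqcrh, Uqcrfs1, Uqcr10 and Uqcr11). The core subunits Uqcrc1 and Uqcrc2, Cyc1 and mt-Cytb did not.

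In complex IV, 12 of 16 passed, all higher in replicate 1 with log2 ratios from -0.95 (Cox5a) to -0.60 (Cox7b); the others were Cox4i1, Cox5b, Cox6a1, Cox6b1, Cox6c, Cox7a2, Cox7a2l, Cox7c, Cox8a and Ndufa4. The genes that did not pass were mt-Co1, mt-Co2, mt-Co3 and Ndufa4l2. In ATP synthase, 15 of 18 passed. Higher in replicate 1 were Atp5b, Atp5d and Atp5e of the head and central stalk, Atp5f1, Atp5h, Atp5j and Atp5o of the peripheral stalk, the ring genes Atp5g1, Atp5g2 and Atp5g3, and the small membrane subunits Atp5j2, Atp5k, Atp5l and Atp5mpl, while Atp5a1 was higher in replicate 2. Of 8 assembly factors, Ndufaf8 (log2 ratio -1.09) and Ndufaf5 (-1.39) passed. Of 89 nuclear genes tested 63 were higher in replicate 1, with a median log2 ratio over the 89 of -0.73. None of 11 mitochondrial genes passed, with a median of -0.20 and log2 ratios from -0.70 to 0.13, on fewer reads each.

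Examples span the roles. Uqcrb, a small subunit of complex III, had 202 and 61 reads, or 173 and 68.6 CPM (log2 ratio -1.32, adjusted p = 2.14e-09, exact binomial test). Ndufb3 of complex I had 384 and 117 reads, or 329 and 132 CPM (log2 ratio -1.31, adjusted p = 7.31e-18, exact binomial test). Atp5e had 250 and 84 reads (log2 ratio -1.17, adjusted p = 1.24e-09, exact binomial test). These subunits lay further below 0 than Cox4i1, the gene with the highest mean level, with a log2 ratio of -0.68. Only Sdha (log2 ratio 0.37, adjusted p = 0.0021, exact binomial test) and Atp5a1 (0.16, adjusted p = 0.048) were higher in replicate 2, and neither passed with TMM or DESeq2 scaling of the totals. Uqcrc1, at 897 and 684 reads, had a log2 ratio of 0.00, and Ndufv1, Uqcrc2 and Ndufs1 of 0.12, 0.10 and 0.25, none past the threshold.

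Transcript length moved with this difference. The log2 ratio rose with the read-weighted length of a gene's transcript models, with a Spearman rho of 0.61 over 93 respiratory chain genes with at least 50 reads and of 0.55 over all 6456 such genes, across genes of the same 2 libraries. Respiratory chain genes are short, with a median of 869 nt against 2446 nt. Of 53 nuclear genes whose models averaged under 1000 nt, 48 were higher in replicate 1 and none in replicate 2; of 36 longer ones, 15 were higher in replicate 1 and 2 in replicate 2.

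Within length classes the genes lay near other genes or below them. Between 500 and 1000 nt the median log2 ratio was -0.75 over 44 respiratory chain genes and -0.69 over all 463 genes. Between 1000 and 2000 nt it was -0.41 over 33 and -0.12 over 1772 genes, and between 2000 and 4000 nt 0.07 over 7 and 0.26 over 3406. With the length trend of all genes removed, 6 of the 100 genes passed, all higher in replicate 1, against 2.71% of all genes in either direction and 1.43% higher in replicate 1.

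These 6 were Atp5g1 (log2 ratio -1.17 after removal, adjusted p = 1.19e-32, exact binomial test), Ndufv2 (-0.79), Ndufb2 (-0.57), Ndufab1 (-0.57), the mitochondrial acyl carrier protein, Ndufc1 (-0.54) and Ndufb3 (-0.49). The value for Atp5g1 rests on the length given to it: its leading model Atp5g1-201 is 4715 nt long in the annotation and the next, Atp5g1-202, 596 nt, and a read is placed by its splice sites rather than its end. The same holds for Ndufb2, whose leading model Ndufb2-205 is 4371 nt long and Ndufb2-202 455 nt, and whose reads of replicate 2 include 57 on a 4360-nt genomic model. Model length is the annotation's for known models and that of the deposited model for the others, such as 46 nt in Cox7a2. The length of the reads themselves was not tested, nor was the part of the choroid plexus RNA of replicate 1 in any of these differences.

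**Figure D4:**
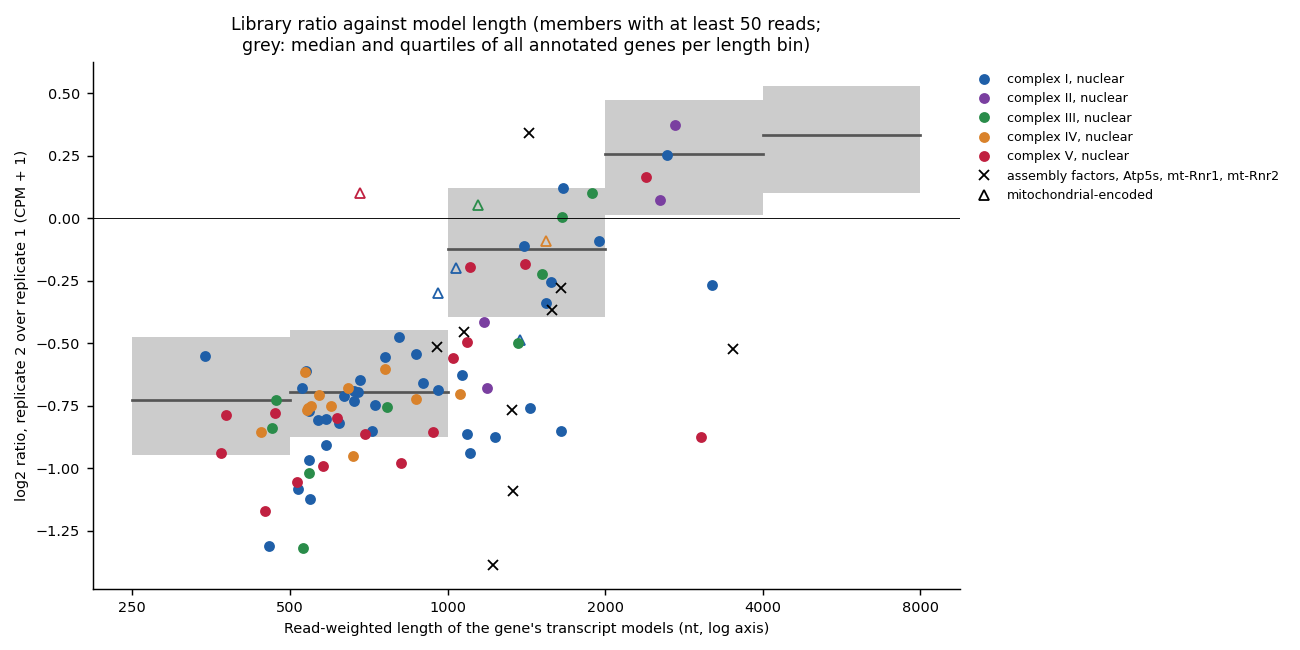
log2 ratio of replicate 2 over replicate 1 (CPM + 1) against the read-weighted length of each gene's transcript models (log axis) for respiratory chain genes with at least 50 reads; circles are nuclear subunits by complex, triangles mitochondrial-encoded, crosses assembly factors, Atp5s and mitochondrial rRNAs, and grey boxes the quartiles and median of all annotated genes per length class, the last being 4000 nt and over. Genes under 1000 nt lie near medians of -0.84 and -0.75, and Sdha at 0.37 and Atp5g1 at -0.88 mark opposite ends among the long ones.

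Neighbouring pathways behaved less uniformly. Among citric acid cycle genes, Mdh2 and Idh3b were higher in replicate 1 and Cs in replicate 2. With the length trend removed, none of them passed. Of 35 further assembly genes tested, 6 were higher in replicate 1 (Surf1, Cox14, Cox17, Coa3, Higd2a and the ATP synthase inhibitor Atpif1) and none with the length trend removed. None of 9 genes for expression of mitochondrial DNA, such as Tfam and Polrmt, and none of 6 nuclear regulators, such as Esrra and Nrf1, passed. Cycs had a log2 ratio of -0.69, and -0.97 with the trend removed.

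TALON, the tool that built the transcript models, classes each model as known (an annotated splice chain), incomplete splice match (ISM, a part of an annotated chain), NIC (annotated splice sites in another combination), NNC (with a splice site outside the annotation) or genomic (overlapping a gene without matching its splice sites). Respiratory chain reads fell on known models in 81.2% and 80.8% of cases, against 71.4% and 71.3% over all other annotated genes. ISM models took 15.4% and 15.3% of reads, more than the 10.5% and 10.4% in other genes. Most were suffixes that hold the 3′ end of the annotated transcript (11.6% and 11.0% of reads, against 6.73% and 7.33% in other genes). NIC and NNC models took 0.889% and 1.20%, and 1.05% and 1.07%, against 5.78% and 7.05%, and 3.86% and 4.25%, in other genes. The class shares thus differed between the libraries by less than they differed from other genes, a comparison given as a description.

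Among complexes, nuclear ATP synthase genes had the fewest known reads, 73.5% and 75.1%, and the most ISM reads, 23.1% and 22.0%. Assembly factors had 60.8% and 60.3% known reads, while their genomic share was 26.8% and 8.50% and their ISM share 3.20% and 23.1%. In Ndufaf7, for example, the same 3′ end was a genomic model in replicate 1 (68 reads, chr17:78946927-78947173) and an ISM model in replicate 2 (39 reads, chr17:78946875-78947173). Classes were assigned in each library separately.

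**Figure D5:**
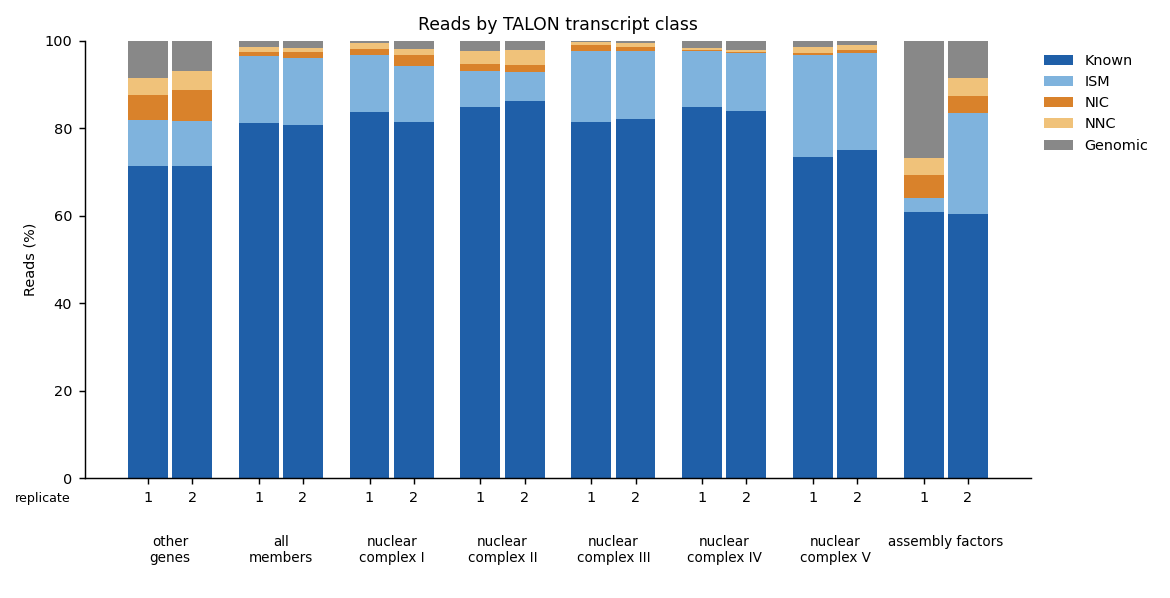
Share of reads in % by TALON transcript class, in replicates 1 and 2, for all other annotated genes, all respiratory chain genes, the nuclear genes of complexes I to V and the assembly factors. Known models take 81.2% and 80.8% of respiratory chain reads, ATP synthase has the largest ISM part of the complexes, and genomic and ISM parts trade places between libraries in the assembly factors.

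Among the 94 genes read 20 times or more in both libraries, 53 had 90% or more of their reads on annotated transcripts in both, and 9 had under 50% in both. In 2 of the latter almost no read was annotated: Ndufa13, an accessory subunit also known as GRIM-19, had 0 of 455 and 0 of 198, and Atp5f1 0% and 0.292%. Their leading models still spanned the coding region. That of Ndufa13 (434 and 180 reads, 4 exons, chr8:69894180-69901732) held the annotated start and stop codons and 1 exon fewer than the 5 of the only annotated transcript. That of Atp5f1 (574 and 292 reads, 7 exons, chr3:105942698-105959246) spanned both codons of the coding transcript, which has 8 exons. Whether both codons lie in exons of the Atp5f1 model was not tested. Atp5j, coupling factor 6, was led in the same way by a 4-exon model (343 of 488 and 115 of 178 reads) that spans the start and stop codons of its 3 coding transcripts.

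Ndufa4, Uqcrq and Ndufb3 were led by 3′ pieces that span a stop codon and hold no start codon. Ndufa4 was led by a 2-exon suffix with 1278 of 2111 and 547 of 886 reads, or 60.5% and 61.7%. Uqcrq was led by its unannotated 1-exon models as a set, nearly all a single model of 198 nt (chr11:53428953-53429150), with 628 of 1203 and 333 of 542 reads. Ndufb3 was led by a 1-exon model of 316 nt with 252 of 384 and 91 of 117 reads. In Atp5b a 2-exon suffix of 372 nt took 783 and 432 reads beside the full Atp5b-201 with 1447 and 1071, and in Ndufs7 one of 246 nt took 215 of 457 and 92 of 203. Cox7a2 had 172 and 106 reads on a 46-nt genomic model at its 3′ end (chr9:79755361-79755406) that holds neither codon. Atp5g2 was led by a 1-exon model (83 of 152 and 34 of 67 reads), as were Ndufaf7 (70 of 152 and 42 of 84) and Ndufaf8 (38 of 77 and 15 of 27); the models of Atp5g2 and Ndufaf8 hold neither codon. Atp5s, a factor linked to ATP synthase that is not one of its subunits, was led by a 5-exon suffix with 9 of 37 and 9 of 23 reads. A 4-exon NIC transcript of Atp5s had 6 and 9 reads, level with the suffix in replicate 2. For Ndufa4, Uqcrq, Ndufb3, Atp5b, Ndufs7 and Cox7a2, among others, the levels therefore count many molecules that do not reach the start of the coding region. A 1-exon model without a start codon also held 105 of 410 and 79 of 205 reads of Cox7b. Such a model held 68 of 299 and 59 of 155 reads of Ndufa1, and 67 of 312 and 46 of 131 of Ndufa5.

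The share of each gene's leading transcript was compared between libraries by Fisher's exact test, adjusted over 6433 genes, of which 1.09% passed. Of 84 respiratory chain genes tested, 74 were led by an annotated transcript, 30 of them at 90% or more in both libraries, and 5 passed. Atp5b-201 held 61.5% and 68.1% of reads (adjusted p = 0.0054, Fisher's exact test) and Ndufc1-201 98.2% and 89.7% (adjusted p = 0.037). Ndufa1-201 held 76.9% and 60.6% (adjusted p = 0.040) and the 1-exon models of Uqcrq 52.2% and 61.4% (adjusted p = 0.033). Ndufb2-205 moved furthest, from 63.5% to 35.7% (adjusted p = 1.46e-04, Fisher's exact test).

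In Ndufb2 the change came with a naming difference: 57 reads of replicate 2 lay on a genomic model downstream (chr6:39603310-39607669), where replicate 1 had 72 reads under an unannotated locus of its own. On annotated transcripts alone Ndufb2 had a log2 ratio of -0.99 in place of -0.27, and none of the 64 leading shares that could then be tested passed, against 0.236% of all genes. With 1-exon models left out 1 of 81 passed, against 0.298%.

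Alternative annotated transcripts were few. In 9 of the 94 genes the second annotated transcript held at least 10% of reads in both libraries. Cox4i1 was split between Cox4i1-204 (1743 and 798 reads, 3 exons) and the 5-exon Cox4i1-201 (994 and 501 reads). Cox4i1-204 (chr8:120672590-120674113) covers only part of the span of Cox4i1-201 (chr8:120668222-120674207), and whether it holds the start codon was not tested. Atp5g1 was split between Atp5g1-201 (435 and 180 reads) and Atp5g1-202 (269 and 98), Atp5g3 between Atp5g3-201 (226 and 79) and Atp5g3-202 (100 and 38), and Ndufs1 between Ndufs1-201 (104 and 93) and Ndufs1-203 (75 and 62). The order of the transcripts was the same in both libraries in each of these genes. Spliced transcripts outside the annotation (NIC, NNC or genomic, so without ISM models) numbered 402 in replicate 1 and 276 in replicate 2. Of them, 108 were found in both libraries, with 376 and 262 reads. The best read of these were a 20-exon NIC transcript of Ndufs1 with 14 and 26 reads, an NNC transcript of Sdhb with 21 and 16, and a second 20-exon NIC transcript of Ndufs1 with 21 and 15. After these came NNC transcripts of Atp5j with 4 exons (27 and 3 reads) and 5 exons (19 and 7 reads).

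Cassette exons, read as inclusion or skipping between the same flanking exons, gave 98 events in 54 respiratory chain genes. None passed Fisher's exact test between libraries, 4 having an unadjusted p of 0.05 or less, and 0.0113% of 8860 events passed over all genes. Inclusion lay between 5% and 95% in both libraries for 9 events. One is the 37-nt exon of Atp5c1 (chr2:10056770-10056806), known from human and cattle to be skipped in heart and skeletal muscle. It was included in 569 reads and skipped in 36 in replicate 1, and included in 375 and skipped in 29 in replicate 2, an inclusion of 94.1% and 92.8%. The end of the coding sequence is shown because inclusion changes it, with capitals for the bases after the shared exon up to the stop codon (mm10, minus strand, GENCODE M21 transcripts):
Atp5c1 with the exon (chr2:10058996-10059019 and chr2:10056800-10056806): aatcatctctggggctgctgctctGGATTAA
Atp5c1 without the exon (chr2:10058996-10059019 and chr2:10056158-10056161): aatcatctctggggctgctgctctGTAA
The form that retains the exon was thus the main one in both libraries, with overlapping intervals (91.9 to 95.8% and 89.9 to 95.1%).

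Ndufv3, a subunit of the NADH-oxidising module of complex I, carries a 1092-nt coding exon (chr17:31527310-31528401) whose length is a multiple of 3. It was included in 19 reads and skipped in 262 in replicate 1 (6.76%, interval 4.12 to 10.4%), and included in 21 and skipped in 106 in replicate 2 (16.5%, 10.5 to 24.2%). The short form without it, Ndufv3-202, had 261 and 106 reads and the long form Ndufv3-201 19 and 21. The difference did not pass the test over all events (adjusted p = 0.83, Fisher's exact test), and the part of transcript length in it was not tested. The first coding bases that set the forms apart are shown, in capitals, behind the shared exon (mm10, plus strand, GENCODE M21 transcripts):
Ndufv3 short form (chr17:31521669-31521692 and chr17:31531110-31531133): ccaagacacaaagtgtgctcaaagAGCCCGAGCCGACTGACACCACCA
Ndufv3 long form (chr17:31521669-31521692 and chr17:31527310-31527333): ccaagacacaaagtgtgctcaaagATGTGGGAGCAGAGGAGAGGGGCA

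The remaining variable exons were mostly included. A 117-nt exon of Ndufa5 was included in 92.9% and 88.1% of reads, a 116-nt exon of Ndufa6 in 92.7% and 86.2%, a 79-nt exon of Ndufs4 in 90.4% and 91.6% and a 67-nt exon of Ndufaf3 in 88.3% and 84.6%. A 144-nt exon of Ndufaf7 was included in 97.4% and 92.1%. A 104-nt noncoding exon at the 5′ end of Ndufs1 (chr1:63172154-63172257) was the other way round, included in 12.1% and 22.8% of reads from 1 upstream exon and in 21.8% and 18.8% from another. A 55-nt noncoding exon of Atp5j was included in 5.58% and 8.12%. Among the exons named here, the noncoding ones and that of Ndufv3 were thus mostly skipped and the other coding exons mostly included.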

How the data were processed

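The deposited tables give, per library, whole-number read counts per TALON transcript model on mm10, and the deposited annotation names TALON and GENCODE M21 as the model sources, per the file headers. Neither the aligner nor tool versions or filters on reads were stated in any source used here. Counts were summed per gene and scaled to CPM by each library's assigned reads, of which ERCC spike-ins were 1.72% and 1.15%. Library totals of 1168366 and 888704 limit precision, and intervals and limits of 0 reads (3 counts) cover counting error only. With no residual degrees of freedom for a comparison of 1 library with the other, edgeR (version 4.0.16) served for TMM factors and DESeq2 (1.42.0) for size factors. Tests of read splits were exact binomial and Fisher's exact tests (scipy 1.17.1). Their Benjamini-Hochberg adjustment ran over all genes, or all cassette exon events, past the read minimum of the test. The length trend was a lowess fit (fraction 0.3) of the log2 ratio (CPM + 1) over genes with at least 50 reads. Leading transcripts and cassette exons needed 20 reads in each library. Copies were found with BLAST 2.17.0. Scripts were tested on simulated data. Genes named are the highest and lowest per complex, tissue forms, genes that passed a test and core catalytic subunits; others were chosen after their values were seen. The members, gene lists and tests were chosen with earlier results of these data known. Alternatives were other scalings, read minimums, annotated transcripts only, 1-exon models or mt- genes left out, the length trend removed and, chosen after seeing the data, reads of near-identical copies added. Proteins and genome sequence were not used here. One gene of the citric acid cycle list is not reported here.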

Additional observations from a re-analysis of the deposited data

Results flagged for a closer look

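Signal outside the genes chosen was found at 4 kinds of place. In the mitochondrial control region, on the strand of mt-Nd6, 17 reads lay in replicate 1 and 10 in replicate 2, above the 3 reads that a count of 0 allows, while mt-Nd6 itself had 0 and 2. Gm10925, a nuclear copy identical to mt-Atp6 over its length, had 51 and 32 reads. Gm12338, identical to Cox7c over its length, had 221 and 93 reads. Gm6969, a copy of Cox7a2l, had 63 reads in replicate 1 and 0 in replicate 2, while Cox7a2l had 159 and 74. Downstream of Ndufb2, a locus outside the annotation had 72 reads in replicate 1 and 0 in replicate 2, where 57 reads of that stretch were named for Ndufb2.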

How the results depend on the processing

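Of the 65 genes called between libraries, 63 kept direction and call under TMM and 63 under DESeq2 scaling, 58 of 63 on annotated transcripts, 63 with no read minimum and all 65 with 50 reads or with copies added. Removing the length trend left 6 calls, 5 of them among the 65; 39 genes lost the call and 21 changed sign, to Ndufa1 0.33, Cox7a2 0.17, Ndufa7 0.11, Ndufb1-ps 0.10, Uqcr11 0.087, Atp5k 0.076, Cox6a1 0.055, Cox7b 0.052, Ndufc2 0.049, Ndufa8 0.044, Atp5g2 0.038, Cox4i1 0.037, Atp5b 0.025, Cox8a 0.023, Cox6c 0.019, Ndufb9 0.018, Ndufv3 0.013, Cox7c 0.012, Ndufb8 0.0052, Ndufs7 0.0032 and Atp5a1 -0.025 on the log2 scale. The removal itself subtracts the value of genes of like length. Leading shares called fell from 5 to 0 on annotated transcripts and to 1 without 1-exon models. On annotated transcripts, complex II stood at 885 CPM, complex V at 5377 CPM, assembly factors at 214 CPM, the mitochondrial share at 2.73%, Cox7a2 at 83.2%, Ndufa4 at 99.0%, Atp5g1 at 64.9%, Atp5g2 at 6.58% and Atp5g3 at 28.6%. Without 1-exon models, Cox7a2 stood at 82.5%, Atp5g1 at 58.1%, Atp5g2 at 6.01% and Atp5g3 at 35.9%, known reads at 85.3%, ISM at 12.4%, NNC at 1.15% and genomic at 0.0014%. With copies added, Cox7a2 stood at 82.8%, Atp5g1 at 49.5%, Atp5g2 at 21.9% and Atp5g3 at 28.6%. Without mt- genes, known reads stood at 80.6%, ISM at 15.7% and NNC at 1.08%, and with models of at least 2 reads known reads at 82.1%, ISM at 15.3%, NIC at 0.721% and NNC at 0.445%. The other 99 values across alternatives moved by no more than the spread between libraries or, for counts, by no more than 1.5 times. These 99 include values with either library left out, which are simply the other library's value. With 2 libraries such a value always lies within the SD of the mean, so it could not have moved and tests nothing. No paired analysis was possible because there is 1 group. Of the mitochondrial genes 6 had 3 reads or fewer in all, too few to compare; the cause of the library difference was not tested.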
